A study of Mus musculus with 4 samples.

Results

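Tetraspanins are small membrane proteins with 4 membrane-spanning segments that gather integrins, immune receptors and proteases into patches of the cell surface. The 10 genes described here are Cd37, Cd53, Cd82, Cd9, Cd81, Cd151, Tspan8, Tspan14, Tspan3 and Tspan13, taken by gene symbol from the 55487 genes of the count table; each symbol had a single entry. The set was selected on the counts and fold changes of imiquimod against Vaseline in these same libraries, so its values in that comparison are a description and carry no test. Some are known mainly from leukocytes (Cd37 and Cd53) and others from epithelia (Cd151, Tspan8) or from both. In dendritic cells, the class to which Langerhans cells of the epidermis belong, Cd9, Cd37, Cd81 and Cd82 are known for organising MHC class II molecules and for effects on migration.

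The libraries held total RNA of Langerhans cells isolated from ears of wild-type mice. There were 2 libraries from ears treated with imiquimod, a Toll-like receptor 7 agonist, and 2 from ears treated with Vaseline as the negative control; age, dose and length of treatment are not given in the sources used here, nor is it said that each library is a different mouse. The p-values below therefore measure only the spread between these libraries, which may be technical. The sample codes in the labels differ between the groups and their meaning is not stated; should they stand for batches, treatment and batch cannot be told apart in any value below. The imiquimod libraries held 14902782 and 20690182 counts and the Vaseline libraries 41998172 and 76028955 counts.

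Each library carried reads of other cells and a low background of its own. The 10 Langerhans cell markers summed to 8434 and 6993 CPM (counts scaled to library size with TMM factors) in imiquimod 1 and 2 and to 23069 and 60934 CPM in Vaseline 1 and 2, with no marker at 0. The 10 keratinocyte markers summed to 19681 and 5459 CPM with imiquimod and to 20991 and 23954 CPM with Vaseline, also with none at 0. The 6 general leukocyte markers (Ptprc, Coro1a, Laptm5, Cd52, Tyrobp, Spi1) summed to 397 and 436 CPM with imiquimod and to 990 and 2049 CPM with Vaseline. The 8 neutrophil markers summed to 67.0 and 246 CPM with imiquimod, where Camp was at 0 in imiquimod 1, and to 10.9 and 45.7 CPM with Vaseline. S100a8 and S100a9 among them are also in the list of 9 activated keratinocyte markers. Those 9 summed to 1516 and 683 CPM with imiquimod and to 356 and 801 CPM with Vaseline. Of the 8 neutrophil markers, 3 reached 5 times the background on average over the libraries. That background, the median over 1491 olfactory and vomeronasal receptor genes, was 0.533 and 1.29 CPM per exonic kilobase, without TMM factors, in imiquimod 1 and 2 and 0.377 and 0.0953 in Vaseline 1 and 2. In bulk RNA, fewer cells of a type and less RNA per cell cannot be told apart, and the part of these shifts in the values below was not tested.

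The start regions of 4 genes are shown because they span the pattern of the data: Tspan8 was lowest in imiquimod relative to Vaseline, Cd53 and Cd37 are the leukocyte-restricted pair, and Cd9 was the most abundant. Each run is RefSeq sequence (GRCm38.p6), 5′ to 3′ on the gene's strand, from 250 bases before to 50 bases after a promoter start. That start need not be the outer end of the gene coordinates given below. The windows of Tspan8 and Cd37 lie wholly within those coordinates. Capitals mark matches on either strand to the PU.1 core GAGGAAGT (PU.1 is a transcription factor of myeloid and B cells) or to the GC box GGGCGG.
Tspan8, chr10:115817034-115817333, plus strand: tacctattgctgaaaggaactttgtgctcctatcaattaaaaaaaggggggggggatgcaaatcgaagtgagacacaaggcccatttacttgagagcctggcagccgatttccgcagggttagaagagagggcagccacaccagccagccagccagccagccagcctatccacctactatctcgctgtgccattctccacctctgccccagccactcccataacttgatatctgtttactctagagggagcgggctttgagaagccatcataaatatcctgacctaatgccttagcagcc
Cd53, chr3:106790100-106790399, minus strand: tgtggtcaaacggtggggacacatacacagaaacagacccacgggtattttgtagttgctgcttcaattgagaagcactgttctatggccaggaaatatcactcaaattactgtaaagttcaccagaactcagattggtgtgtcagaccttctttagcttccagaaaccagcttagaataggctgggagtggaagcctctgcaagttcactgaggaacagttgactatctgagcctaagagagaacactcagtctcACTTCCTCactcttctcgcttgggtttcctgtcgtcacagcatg
Cd37, chr7:45238790-45239089, minus strand: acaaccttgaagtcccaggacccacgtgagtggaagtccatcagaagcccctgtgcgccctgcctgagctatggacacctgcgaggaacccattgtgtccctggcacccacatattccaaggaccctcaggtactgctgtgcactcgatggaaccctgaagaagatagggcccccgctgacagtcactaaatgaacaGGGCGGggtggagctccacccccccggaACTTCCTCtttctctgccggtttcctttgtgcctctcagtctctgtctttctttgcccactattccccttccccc
Cd9, chr6:125494711-125495010, minus strand: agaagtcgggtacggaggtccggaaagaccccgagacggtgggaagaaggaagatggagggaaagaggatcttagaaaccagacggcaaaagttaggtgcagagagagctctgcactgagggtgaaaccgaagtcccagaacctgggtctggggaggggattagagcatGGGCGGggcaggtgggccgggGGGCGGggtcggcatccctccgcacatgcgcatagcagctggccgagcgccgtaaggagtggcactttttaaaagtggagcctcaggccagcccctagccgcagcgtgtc
The PU.1 core, read on the opposite strand, began 25 bases before the start used for Cd37 and at base 7 after the start used for Cd53. It was found in 3.20% of all 32851 promoter windows, and in 4 of the 15 windows of the 10 genes, the other matches being at secondary starts of Cd82 and Tspan14. The GC box was found in 35.7% of all windows and in 8 of these 15. Cd9 had 2 GC boxes and 18 CpG pairs in its window, Cd37 1 and 8, Cd53 none and 4, and Tspan8 none and 5. The AP-1 motif TGANTCA and an interferon response motif (GAAA, any 2 bases, GAAA) had 0 matches in the 15 windows. They occur in 7.81% and 3.44% of all windows. A TATAAA match occurred in 1 of the 15 windows, that of Cd81, and in 13.6% of all windows.

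Per exonic kilobase, the scale on which genes can be compared, Cd9 was highest in both groups, and Cd82 and Cd53 came next. Cd9 had 143 and 42.9 CPM per kilobase in imiquimod 1 and 2 and 181 and 295 in Vaseline 1 and 2. Its order above Cd82 held in both groups with no overlap, while Cd82 and Cd53 overlapped each other in both. With imiquimod the next places were Cd81, Cd151, Tspan3 and Tspan14, each overlapping its neighbour, then Cd37, Tspan8 and Tspan13, which did not overlap. With Vaseline the order after Cd53 was Tspan14, Cd151, Tspan8 and Cd81, each overlapping its neighbour, then Tspan3 and Cd37, which overlapped, and last Tspan13. Tspan8 therefore stood in place 9 with imiquimod, at 1.75 CPM per kilobase on average, and in place 6 with Vaseline, at 13.5.

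**Figure D1:**
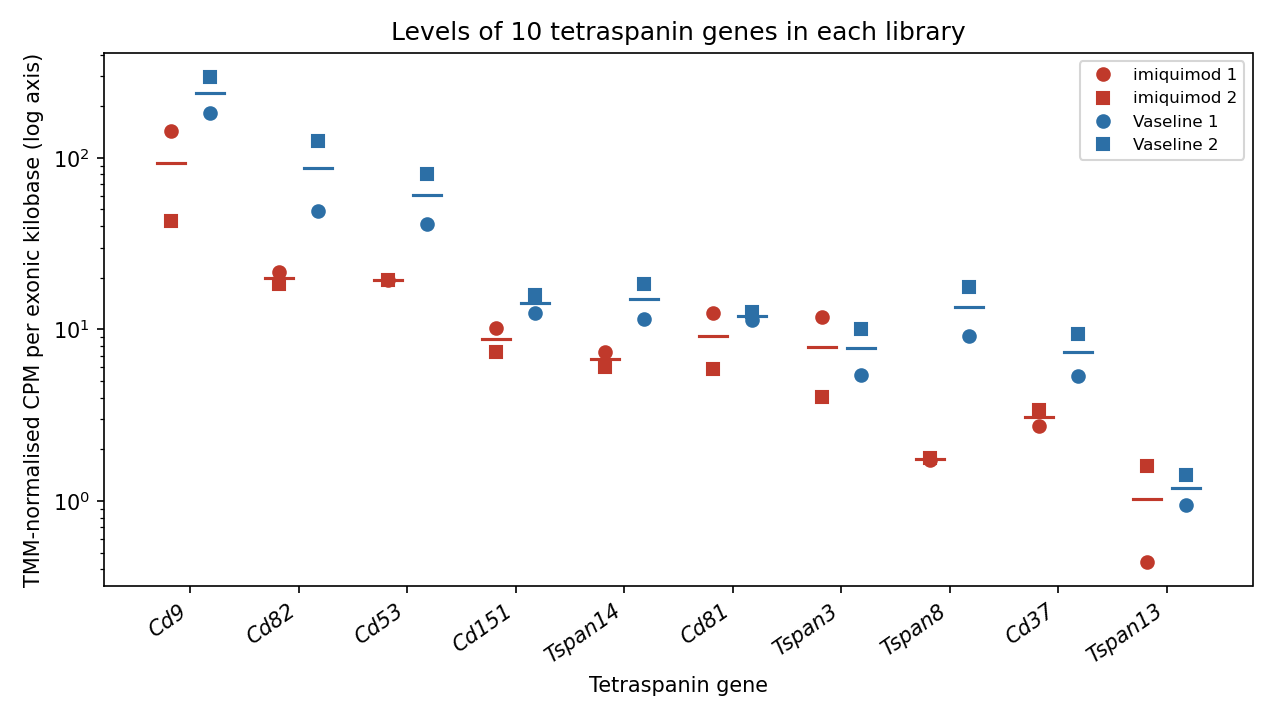
Level of each of the 10 tetraspanin genes (TMM-normalised CPM per exonic kilobase, log axis) in each library; bars are means of 2 libraries, imiquimod left in red and Vaseline right in blue. Cd9 stands highest in both groups, and the imiquimod points of Tspan8, at 1.73 and 1.78, lie far below its Vaseline points, at 9.16 and 17.8.

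Tspan8, a tetraspanin known from gut and other epithelia and from human carcinomas, differed most between the groups. Its gene (ENSMUSG00000034127) lies at GRCm38 chromosome 10, 115816832 to 115849893, on the plus strand. It had 46 and 104 counts in imiquimod 1 and 2 and 625 and 1374 counts in Vaseline 1 and 2. Scaled, these were 2.94 and 3.04 CPM with imiquimod and 15.6 and 30.2 CPM with Vaseline. The groups did not overlap. With these factors the imiquimod libraries lay close together and the Vaseline libraries differed 1.94-fold, but on library totals the imiquimod libraries, at 3.09 and 5.03 CPM, lay further apart in proportion than the Vaseline libraries, at 14.9 and 18.1 CPM. The log2 fold change of imiquimod over Vaseline was -2.94 (SE 0.67), and between -3.46 and -1.99 in the 16 other settings run. The count of 46 has an exact Poisson interval of 33.7 to 61.4 at 95%, which covers counting error only. In imiquimod 1 and 2 Tspan8 stood at 3.40 and 2.29 times the receptor-gene background, against 23.2 and 111 times in Vaseline 1 and 2. Its level with imiquimod was thus not far above the background, which was not subtracted from any value.

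Cd82 and the leukocyte-restricted pair, Cd53 and Cd37, had negative fold changes of graded size. Cd82 (ENSMUSG00000027215, chromosome 2, 93419111 to 93463140), known as a suppressor of metastasis and for restraining dendritic cell migration, had 64.8 and 55.4 CPM in imiquimod 1 and 2 and 146 and 377 CPM in Vaseline 1 and 2, a log2 fold change of -2.12 (SE 0.82). Cd53 (ENSMUSG00000040747, chromosome 3, 106759921 to 106790149), which is restricted to leukocytes and stabilises L-selectin, had 33.9 and 34.0 CPM with imiquimod and 72.0 and 141 CPM with Vaseline, a log2 fold change of -1.65 (SE 0.69). Cd37 (ENSMUSG00000030798, chromosome 7, 45233632 to 45239115), also restricted to leukocytes and a partner of the fungal receptor Dectin-1, had 9.65 and 11.9 CPM with imiquimod and 18.8 and 32.9 CPM with Vaseline, a log2 fold change of -1.25 (SE 0.61). None of these 3 overlapped between groups on this scale. On library totals alone their log2 fold changes were -1.18, -0.72 and -0.30, and Cd37 overlapped between groups, at 10.1 and 19.8 CPM with imiquimod and 17.9 and 19.7 CPM with Vaseline. Without Vaseline 2 the log2 fold changes of Cd82, Cd53 and Cd37 were -1.31, -1.11 and -0.83.

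Cd9, which is needed on the egg for fusion with sperm and is found on keratinocytes and many leukocytes, depended on which imiquimod library was read. Its gene (ENSMUSG00000030342) lies on chromosome 6, 125460266 to 125494791, minus strand. It had 293 and 87.6 CPM in imiquimod 1 and 2 and 371 and 603 CPM in Vaseline 1 and 2. The groups did not overlap, but the imiquimod libraries differed 3.34-fold, and the log2 fold change of -1.36 (SE 0.95) was -0.73 without imiquimod 2, -2.55 without imiquimod 1 and -0.66 on library totals. The keratinocyte markers also stood higher in imiquimod 1 than in imiquimod 2, at the sums given above, and their part in the Cd9 values was not tested. Exons of other genes cover 10.7% of the exonic bases of Cd9, and strand settings of the counting are not given in the sources used here.

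Cd151 and Cd81 lie 1581265 bases apart on chromosome 7 and differed less. Cd151 (ENSMUSG00000025510, 141467392 to 141471473), which binds the laminin-binding integrins that anchor basal keratinocytes, had 27.8 and 20.1 CPM in imiquimod 1 and 2 and 34.4 and 43.5 CPM in Vaseline 1 and 2, a log2 fold change of -0.71 (SE 0.62). Cd81 (ENSMUSG00000037706, 143052739 to 143067934), broadly expressed and known from lymphocytes, had 36.0 and 16.9 CPM with imiquimod and 32.5 and 36.4 CPM with Vaseline, a log2 fold change of -0.40 (SE 0.61). Cd151 did not overlap between groups and Cd81 did. Their signs turned on library totals, at 0.10 for Cd151 and 0.32 for Cd81, and when only genes above background were fitted, at 0.06 and 0.30. The sign of Cd81 was also positive without imiquimod 2, at 0.07.

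Tspan14 belongs to the TspanC8 tetraspanins, which carry the protease ADAM10 to the cell surface. Its gene (ENSMUSG00000037824) lies on chromosome 14, 40906445 to 40966807. It had 19.5 and 16.1 CPM in imiquimod 1 and 2 and 30.6 and 48.5 CPM in Vaseline 1 and 2, with no overlap and a log2 fold change of -1.16 (SE 0.62), which was -0.29 on library totals and -0.34 with only genes above background fitted. Tspan3 (ENSMUSG00000032324, chromosome 9, 56131725 to 56165477), a broadly expressed member, had 50.2 and 17.2 CPM with imiquimod and 23.3 and 43.1 CPM with Vaseline. Each of its groups spanned most of the range of the other, the log2 fold change was 0.00 (SE 0.62), and its sign was negative in 8 and positive in 8 of the other settings. Tspan13 (ENSMUSG00000020577, chromosome 12, 36014557 to 36042500) had 1.09 and 3.97 CPM with imiquimod and 2.35 and 3.52 CPM with Vaseline. It rested on 17 counts in imiquimod 1 (exact Poisson interval 9.90 to 27.2) and stood at 0.865 and 2.06 times the background with imiquimod and at 2.40 and 8.92 times with Vaseline, so its level with imiquimod was at or near the background. Its log2 fold change was -0.09 (SE 0.71), 0.94 on library totals and -1.44 without imiquimod 2.

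In all, 9 of the 10 genes had a negative log2 fold change, where 39.4% of all 39439 tested genes and 83.3% of the 14403 tested genes at 5 or more times the background did. That multiple is a mean over the libraries and is largest where the background is lowest, in Vaseline 2, so genes higher in Vaseline reach it more easily. Tspan8 reached it through the Vaseline libraries alone. All 10 passed the filter on low counts. By the edgeR quasi-likelihood test with Benjamini-Hochberg adjustment over all genes, 1 of the 10 was called lower, Tspan8, and none higher; 0.2% of all genes were called, 0.137% lower and 0.0634% higher. Since this comparison was known when the genes were chosen, nothing is read from that count. Tspan8 was called in 6 of the 16 other settings: DESeq2 (1.71% of genes called), DESeq2 on genes above background (1.76%), limma-voom (0.449%), upper-quartile factors (0.246%), the stricter filter (0.529%) and without Vaseline 1 (7.94%), where the lone Vaseline library is assumed to vary like the imiquimod pair. It was not called with RLE factors (0.0786%), on library totals (0.033%), in the older quasi-likelihood form (0.0203%), with a replicate block (0.00254%), or without Vaseline 2 (0.107%), imiquimod 1 (0.0478%) or imiquimod 2 (0.0195%). Nor was it called in the 3 settings that called 0 genes. Cd82 and Cd53 were called in 1 setting, DESeq2 on all genes, where 1.69% of genes were called lower. For 7 of the 10 the groups did not overlap with imiquimod lower, where 20.9% of all tested genes and 50.6% of those at 5 times background did so; 30.5% of all did so with imiquimod higher, and 0 of the 10. On library totals this held for 5 of the 10 (Tspan8, Cd82, Cd53, Cd9 and Tspan14), against 7.42% of all tested genes and 19.5% of those at 5 times background. Tspan3 did not overlap in the other direction, with imiquimod higher, against 45.6% and 23.4%. The median log2 fold change of the 10 genes was -1.21, against 0.41 for all tested genes and -0.69 for those at 5 times background. With only genes above background fitted, 6 of the 9 genes kept in that fit were negative and their median was -0.37, against 0.08 for all genes fitted.

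**Figure D2:**
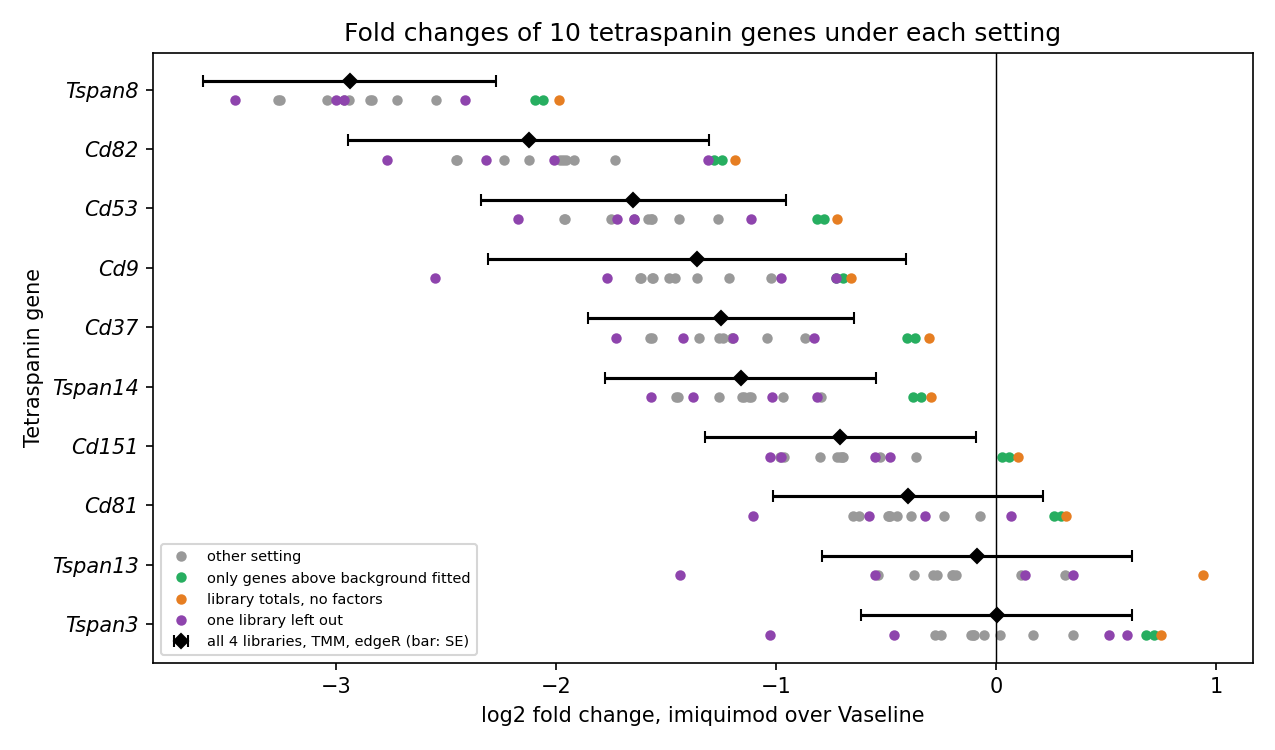
Log2 fold change of imiquimod over Vaseline for the 10 tetraspanin genes; diamonds with SE bars are the fit to all 4 libraries and dots the other settings. Tspan8, Cd82, Cd53, Cd9, Cd37 and Tspan14 lie left of 0 in every setting, and the library-total value lies furthest right for each gene, beyond 0 for Cd151, Cd81, Tspan3 and Tspan13.

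A change of library factors moves all genes nearly alike, so it could hardly change their order; leaving out a library or fitting other genes could. Tspan8 had the most negative value of the 10 in all 16 other settings. Cd82 stood in place 2 or 3, Cd53 in place 3 or 4, and Cd37 and Tspan14 in places 5 and 6, while Cd9 moved between places 2 and 7 and Tspan13 between places 4 and 10. Ratios of counts within a library need no scaling between libraries. The background, not far above which Tspan8 stood with imiquimod, was not subtracted from them. There were 11.5 and 11.2 counts of Cd53 for each count of Tspan8 in imiquimod 1 and 2, against 4.62 and 4.65 in Vaseline 1 and 2. For Cd37 and Tspan8 the ratio was 3.28 and 3.93 with imiquimod, against 1.20 and 1.09 with Vaseline. Each of the 9 other genes had a higher ratio to Tspan8 in both imiquimod libraries than in either Vaseline library, as did 93.7% of all tested genes and 96.5% of those at 5 times background. Cd9 and Tspan3 moved apart as well, with 5.83 and 5.09 counts of Cd9 per count of Tspan3 with imiquimod and 15.9 and 14.0 with Vaseline. This was not particular to Cd9. Ratios of Cd82, Cd53, Cd37 and Tspan14 to Tspan3 were also lower with imiquimod without overlap, while those of Cd81, Cd151 and Tspan13 overlapped. Of all 45 pairs of the 10 genes, 18 overlapped between groups. The share over all tested genes was not taken for ratios to Tspan3 or for these pairs. Those counts are therefore a description only. Of the summed level per kilobase of the 10 genes, Tspan8 took 1.18% ± 0.61 with imiquimod and 2.91% ± 0.17 with Vaseline, Tspan3 4.36% ± 1.03 and 1.69% ± 0.04, and Cd9 50.3% ± 16.5 and 52.8% ± 3.60 (SD, n = 2 each).

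Set against the leukocyte markers of the same library, Tspan8 was lower with imiquimod and the leukocyte-restricted pair was not. For each 1000 counts of the 6 leukocyte markers, Tspan8 had 7.40 and 6.95 counts in imiquimod 1 and 2 and 15.8 and 14.8 counts in Vaseline 1 and 2. Imiquimod was lower without overlap on this measure for 1 of the 10 genes, Tspan8, for 0.624% of all tested genes and for 1.48% of those at 5 times background. Cd53 had 85.4 and 77.8 counts with imiquimod and 72.7 and 68.6 with Vaseline, and Cd37 had 24.3 and 27.4 with imiquimod and 19.0 and 16.1 with Vaseline. Both were thus higher in both imiquimod libraries. Cd82 overlapped, at 163 and 127 counts with imiquimod and 148 and 184 with Vaseline, as did Cd9. Imiquimod was higher without overlap for 7 of the 10 genes, against 79.2% of all tested genes and 66.9% of those at 5 times background, shares near that of the 10. Against the 10 Langerhans cell markers, Tspan8 had 0.348 and 0.434 counts per 1000 with imiquimod and 0.676 and 0.496 with Vaseline. It was again the only 1 of the 10 that was lower without overlap, where 0.177% of all tested genes and 0.292% of those at 5 times background were. The 104 counts of Tspan8 in imiquimod 2 have an exact Poisson interval of 85.0 to 126 at 95%. On this measure its upper end lies above the Vaseline 2 value, so counting error alone could undo the separation. Imiquimod was higher for 8 of the 10, against 88.3% and 87.6%. Against the 10 keratinocyte markers, Tspan8 and Cd9 were lower without overlap, where 0.981% of all tested genes and 2.22% of those at 5 times background were. Cd81 and Tspan3 were higher, against 45.2% and 24.9%. Cd9 had 14.9 and 16.1 counts per 1000 with imiquimod and 17.7 and 25.2 with Vaseline. The ratios to marker lists were chosen after seeing the data, and the 10 genes with this comparison known. Tspan8 also reached 5 times background through the Vaseline libraries alone. The counts and shares in this paragraph are therefore a description, and nothing is read from them.

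**Figure D3:**
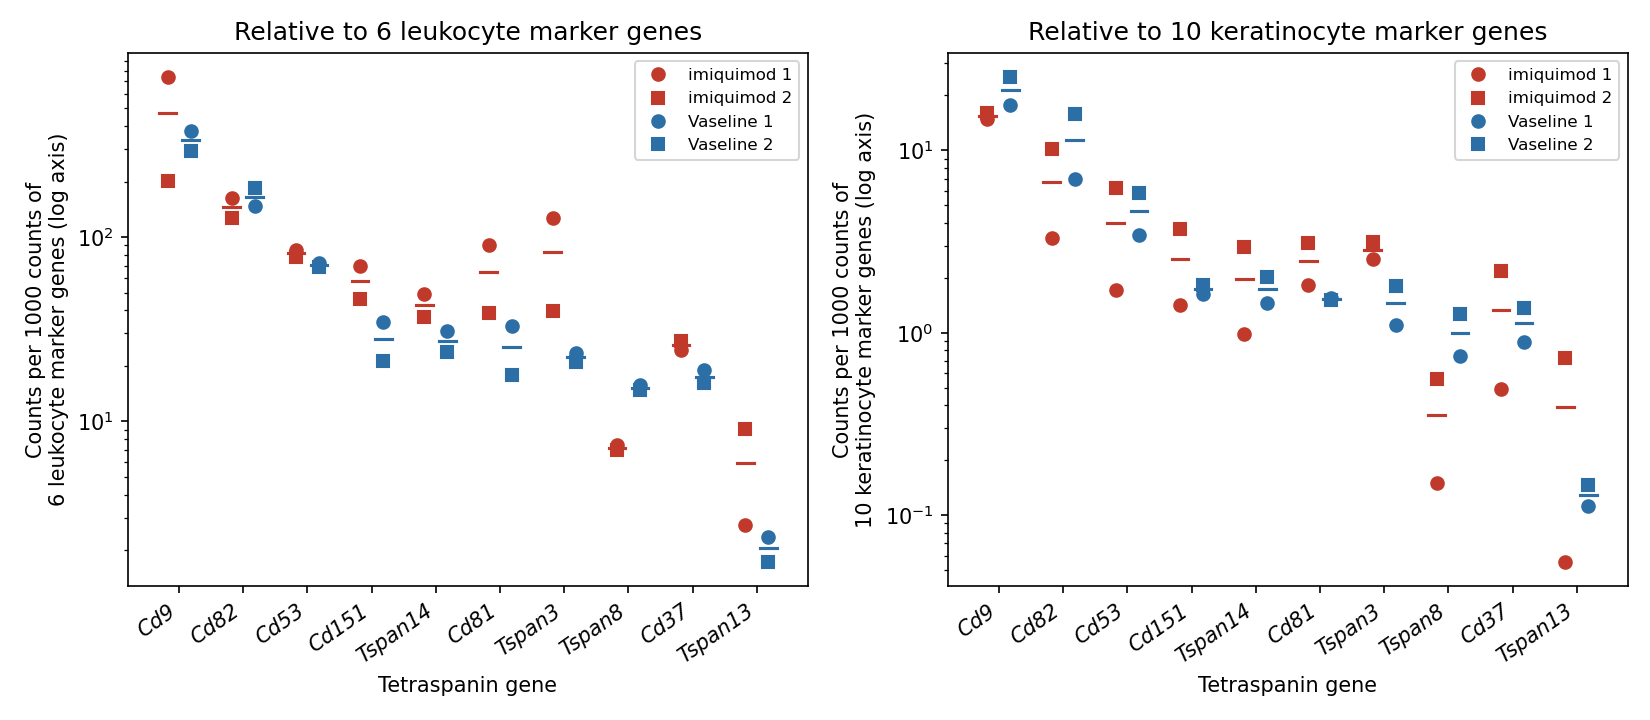
Counts of each tetraspanin gene per 1000 summed counts of 6 leukocyte markers (left) and 10 keratinocyte markers (right) in each library, log axes, bars at the means of 2 libraries. On the left Tspan8 alone has both imiquimod points below both Vaseline points, while 7 of the 10 genes, Cd53 and Cd37 among them, have both above. On the right Tspan8 and Cd9 have both below.

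The profile of Tspan8 over the 4 libraries was compared with 12005 other tested genes of at least 5 CPM on average. The nearest, by root mean square difference of log2 CPM centred on each gene's mean, were Evi2a (0.03), Gpr141 (0.09), Tbc1d16 (0.09), Csf1r (0.11), the receptor of macrophage colony-stimulating factor, and H2-DMb1 (0.11), a chain of the MHC class II peptide loader. Evi2a had 11.1 and 11.8 CPM with imiquimod and 53.9 and 100.07 CPM with Vaseline. Csf1r is also in the list of 10 Langerhans cell markers. All 10 of those markers were lower with imiquimod without overlap, as were 50.6% of tested genes at 5 times background. Among the 10 genes, the one nearest to Tspan8 was Cd82, at a difference of 0.40, and the farthest was Tspan3, at 1.40. Cd37 and Tspan14 were the closest pair, at 0.21. With 4 libraries many genes share such a profile.

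The rest of the family was measured from 21 further tetraspanin genes, all tested. By the edgeR quasi-likelihood test 1 of the 21 was called lower and none higher, where 0.137% and 0.0634% of all genes were. That gene was Tspan2, known from oligodendrocytes. It had 3.45 and 5.31 CPM in imiquimod 1 and 2 and 16.4 and 36.9 CPM in Vaseline 1 and 2, and its log2 fold change was -2.57 (SE 0.64, edgeR adjusted p = 0.0408). The call was kept in 4 of 16 other settings (DESeq2, limma-voom, the stricter filter and without Vaseline 1, where the imiquimod pair alone gives the spread), with adjusted p between 0.00379 and 0.9997 over the 16, and its sign stayed negative in each. Per 1000 leukocyte marker counts Tspan2 had 8.68 and 12.2 counts with imiquimod and 16.5 and 18.02 with Vaseline. Of the 4 further genes of highest level per length, Cd63, which marks late endosomes and exosomes, had a log2 fold change of -1.17 (SE 0.74), Tspan9 -1.11 (SE 0.64), Tspan31 -0.60 (SE 0.60) and the TspanC8 gene Tspan5 -0.01 (SE 0.63), and none of them passed. Exons of other genes cover 29.2% of Tspan31. Of the 21, 7 had negative and 14 positive values, with a median of 0.37, where 39.4% of all tested genes were negative. At 5 or more times the background 7 of 9 were negative, with a median of -0.48, against 83.3% of tested genes there. The 12 below that level were all positive, with a median of 0.63. Since 39.4% of all tested genes but 83.3% of those at 5 times background were negative, tested genes below it were mostly positive too. Nothing about the family is read from that count. Tspan2 stood at 1.43 and 1.44 times the background with imiquimod and at 8.72 and 48.7 times with Vaseline.

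**Figure D4:**
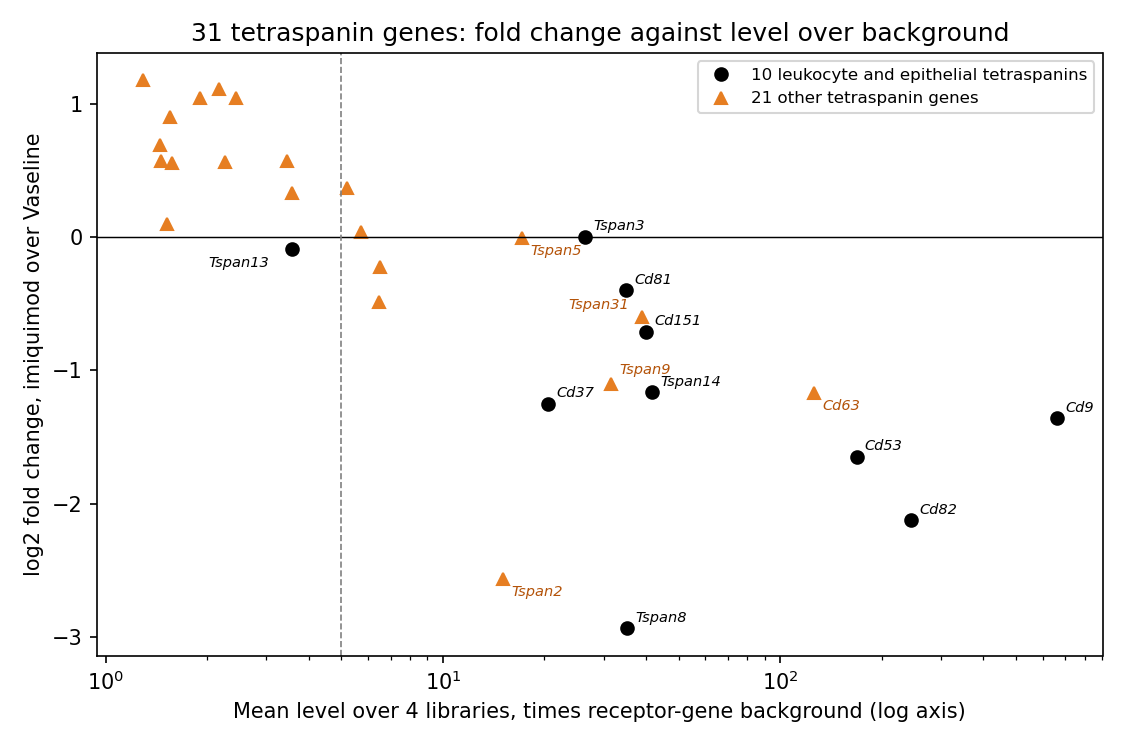
Log2 fold change of imiquimod over Vaseline against the mean level over 4 libraries in multiples of the receptor-gene background (log axis, dashed line at 5) for the 10 tetraspanins described here (dots) and 21 others (triangles). The multiple is raised most by Vaseline 2, so the axes are not independent. Tspan8 and Tspan2 lie lowest, at -2.94 and -2.57.

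Genes known to act with tetraspanins were read in 4 lists of 72 genes in all. By the edgeR quasi-likelihood test none of the 72 was called in either direction. At an unadjusted p under 0.05 there were 7, all lower, where 5.1% of all genes were lower and 8.63% higher at that p; limma-voom called 0, and DESeq2 called 7 lower, where it called 1.69% of all genes lower: Cd36, Cd74, Clec7a, H2-Aa, H2-Ab1, H2-Eb1 and Inpp5d. Of the 72, 61 had a negative log2 fold change, and the median was -0.78. Values were negative for 17 of 19 adhesion and immunoglobulin-family partners, and for 17 of 26 immune receptors and signalling partners. Among 19 adhesion and immunoglobulin-family partners the smallest p-values were those of the scavenger receptor Cd36 (-2.14, SE 0.63, edgeR adjusted p = 0.121), Vcam1 (1.19, SE 0.62, at 1.49 times the background), the integrin chain Itgb7 (-1.08, SE 0.61) and Epcam (-1.48, SE 0.91). Among 26 immune receptors and signalling partners they were those of Clec7a, which encodes Dectin-1 (-2.39, SE 0.86), Cd4 (-1.52, SE 0.61) and Fcer1g (-1.56, SE 0.67). Clec7a had 58.8 and 66.7 CPM with imiquimod and 235 and 424 CPM with Vaseline, with no overlap, beside the values of its partner Cd37 above. Of 11 genes of the ADAM10 axis, all had negative values, led by the membrane-bound chemokine Cx3cl1 (-1.34, SE 0.61), Adam10 itself (-1.32, SE 0.66) and Il6ra (-0.89, SE 0.77). Adam10 had 40.1 and 20.98 CPM with imiquimod and 60.4 and 91.1 CPM with Vaseline. Of 16 genes of palmitoylation, glycosylation and vesicle traffic, all had negative values as well, led by Zdhhc2, an enzyme that palmitoylates Cd9 and Cd151 (-1.69, SE 0.62), Marchf8 (-1.10, SE 0.61), Tsg101 (-1.06, SE 0.65) and Sdcbp, the exosome adaptor syntenin (-1.05, SE 0.72). Their shares of negative values stand beside 83.3% among all tested genes at 5 times the background.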

How the data were processed

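The deposited table holds counts per gene for each of 4 libraries, whole numbers with no scaling. Per the labels' protocols, libraries were made with a stranded total RNA kit for low input. The submitters' processing notes name HISAT2, StringTie, Trimmomatic and SAMtools, and the build GRCm38; versions, annotation and strand setting are not given in the sources used here. Of 55487 genes, 55227 matched GENCODE release M21, which gave exon lengths and coordinates.

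Groups were compared with edgeR 4.0.16 (R 4.3.3; TMM factors, filterByExpr with minimum count 10 and total 15, newer quasi-likelihood form, two-sided, Benjamini-Hochberg over 39439 genes, adjusted p under 0.05). SE is the absolute log2 fold change over the square root of F. The fit was tested on simulated data. Other settings used DESeq2 1.42.0 and limma 3.58.1. Genes above background have a mean ratio of at least 5 to the receptor-gene median. The older quasi-likelihood form, DESeq2 on genes above background, swapped pairing and ratios to marker lists were chosen after seeing the data.

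The genes and lists were chosen with earlier results of these data known. Named genes were the 10 tetraspanins, other tetraspanins called or among the 4 highest per length, up to 4 partners of smallest p per list, and the 5 profiles nearest to Tspan8; 2 partners that this rule names are not reported here. Tables were handled with Python 3.11.15, pandas 2.3.3 and numpy 2.4.6, and plots drawn with matplotlib 3.10.9.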

Additional observations from a re-analysis of the deposited data

How the results depend on the processing

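The number of genes called depended on the setting. Against 79 genes called (25 higher, 54 lower), there were 31 with RLE factors (17 and 14), 13 on library totals (8 and 5), 673 with DESeq2 (6 and 667), 177 with limma-voom (41 and 136), 0 with no filter, 151 with the stricter filter of 10 counts per library and 50 in total (27 and 124), 0 with genes above background alone, 254 with DESeq2 on those genes (99 and 155) and 8 with the older quasi-likelihood form (3 and 5); with upper-quartile factors the split was 41 and 56. Leaving out 1 library gave between 8 (without imiquimod 2) and 3276 (without Vaseline 1), with 45 without Vaseline 2 and 21 without imiquimod 1. Over all genes in the test the middle log2 fold change was 0.41, but 0.16 with RLE, 0.76 with upper-quartile factors and 1.30 on library totals. The replicate block left 1 gene called. Whether replicate numbers pair the libraries is not known. The deviations of same-numbered libraries correlated at -0.33 across all tested genes and at -0.12 across genes above background. The background was lower in Vaseline 2 than in Vaseline 1 but higher in imiquimod 2 than in imiquimod 1. Such opposite shifts can lower the correlation of paired libraries too, so these values cannot decide on pairing. With the numbers swapped in 1 group 0 genes were called, in a fit with 1 residual degree of freedom, so that count says nothing about pairing. Tspan2, the 1 other tetraspanin called, was lost, leaving 0, with RLE, upper-quartile and no factors, no filter, either block, the older form, and both fits of genes above background; without 1 library the count was 0 to 1. Partner genes called were 7 with DESeq2 and 5 with DESeq2 on genes above background (Cd74, Clec7a, H2-Ab1 and H2-Eb1 lower, Kit higher), against 0. Of the 10 tetraspanins, 6 to 10 had a negative value in each setting, and of 158 fold changes recomputed 121 moved by less than the spread between replicates and 37 by more, most of them under library totals and the fits of genes above background. Causes were not tested. Taking shares of the 10 genes from counts without length moved the difference of Cd9 by less than its spread. Depth limits Tspan8 and Tspan13 in imiquimod 1, at 46 and 17 counts.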
